A study of Mus musculus with 9 samples.

Results

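The genes of cholesterol and fatty acid synthesis were followed in ATDC5 cells, a mouse chondrogenic line in which steps of cartilage differentiation can be followed in culture. The set comprised 33 genes named in a list by symbol. The list has no threshold on measured values, but it was drawn up with earlier results of these data known. All 33 were found among the 26202 genes of the table, and all 33 had a mean level of at least 1 CPM (counts scaled to a common library size) over the libraries, the minimum for testing, as did 12868 genes in all. Messenger RNA was sequenced in 9 libraries, 3 each labelled control, acetate and ethanol, to ask whether acetate, the product of ethanol oxidation, could mediate effects of ethanol on chondrocyte differentiation. The cells of all groups carried no stated genetic change and were grown in DMEM/F-12, and a medium with added insulin-transferrin-selenium, ascorbate and beta-glycerophosphate was used during treatment. The sources used here do not give doses, times or what the controls received. No label states that the 3 replicates of a group came from separate cultures, and p-values then measure only how far these samples spread, which may be technical.

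Cells build cholesterol from acetyl-CoA through mevalonate, isoprenoid units, squalene and lanosterol, and build fatty acids from the same acetyl-CoA with fatty acid synthase, desaturases and elongases. Transcription of both routes is driven by the SREBP factors, which are held in the endoplasmic reticulum by the Insig proteins when sterols are plentiful and are released to the nucleus when sterols run low. In growth cartilage, cholesterol is also attached to hedgehog ligands. SREBP acts at promoters together with NF-Y, a factor that binds the sequence CCAAT.

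Promoter sequences are shown for 5 members, 1 each for an early sterol gene with an SREBP-type motif, an early sterol gene with several CCAAT motifs, a late sterol gene, the main fatty acid gene and the member with the largest ethanol difference. They were taken from RefSeq on GRCm38.p6, and each is the 160 bases directly upstream of the annotated start, read 5′ to 3′ on the gene's strand. Capitals mark matches, on either strand, to CCAAT, which on the opposite strand is read as ATTGG, to CACNCCAC, the core of the sterol regulatory element, and to the E-box CACGTG.
Hmgcs1 (chr13:119690191-119690350, plus strand): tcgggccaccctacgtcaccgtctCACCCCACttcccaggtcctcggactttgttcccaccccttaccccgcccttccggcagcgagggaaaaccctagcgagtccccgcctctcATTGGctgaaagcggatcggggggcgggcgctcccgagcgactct
Mvk (chr5:114444109-114444268, plus strand): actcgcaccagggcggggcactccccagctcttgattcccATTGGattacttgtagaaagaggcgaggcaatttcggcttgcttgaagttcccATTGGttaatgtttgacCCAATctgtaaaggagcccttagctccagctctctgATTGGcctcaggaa
Sc5d (chr9:42264301-42264460, minus strand): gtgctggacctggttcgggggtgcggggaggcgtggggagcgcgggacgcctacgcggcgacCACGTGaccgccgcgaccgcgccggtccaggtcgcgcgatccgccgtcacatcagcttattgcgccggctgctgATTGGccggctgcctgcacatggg
Fasn (chr11:120824548-120824707, minus strand): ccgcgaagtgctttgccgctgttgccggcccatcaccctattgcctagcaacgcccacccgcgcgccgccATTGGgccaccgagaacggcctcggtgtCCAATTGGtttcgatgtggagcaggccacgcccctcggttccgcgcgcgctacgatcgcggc
Lpin1 (chr12:16610967-16611126, minus strand): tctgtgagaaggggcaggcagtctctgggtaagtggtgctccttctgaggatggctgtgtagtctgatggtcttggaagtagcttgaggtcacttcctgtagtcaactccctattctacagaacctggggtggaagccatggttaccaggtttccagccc
In these windows Mvk held 4 matches to CCAAT, Fasn 3 and Hmgcs1 and Sc5d 1 each. Hmgcs1 also held 1 match to CACNCCAC, Sc5d 1 match to CACGTG, and Lpin1 none of the motifs.

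Of the 33 members, 26 were in the RefSeq promoter table, where a promoter runs from 250 bases before to 50 bases after the start. A match to CCAAT on either strand was found in at least 1 promoter of 22 of these 26 genes (84.6%), against 41.1% of the 27025 genes in the table. The match was present in 5 of 5 genes of the mevalonate and isoprenoid steps, 9 of 9 from squalene to cholesterol and 3 of 3 SREBP and Insig genes. It was present in 4 of 6 genes of fatty acid synthesis and 1 of 3 of glycerolipid synthesis. CACNCCAC was found in Hmgcs1, Insig1 and Gpam, 11.5% of members against 7.12% of genes, and the longer classical sterol regulatory element, which contains it, in 0 of 26 members against 0.270%. CACGTG was found in 5 members (Hsd17b7, Sc5d, Dhcr7, Insig1 and Elovl5), 19.2% against 8.09%. A match is a description of the letters and no evidence of binding. Fdps, Fdft1, Sqle, Stard4, Scd1, Scd2 and Fads1 were not in the table.

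The libraries held 28.7 to 41.9 M recovered reads, so 1 read was worth 0.0231 to 0.0348 CPM and every member was counted from many reads. Levels are TMM-scaled CPM throughout, and differences are log2 fold changes on the scale of log2(CPM + 1) ± standard error, from limma with Benjamini-Hochberg adjustment over all 12868 genes. A gene passed the test at an adjusted p under 0.05. Of 8 chondrocyte markers, all were expressed, and their summed level was 10238 to 13292 CPM in control, 5257 to 5930 CPM in acetate and 4808 to 6035 CPM in ethanol libraries. Of these markers 6 passed the test as lower with ethanol and 5 with acetate, where 2.45% and 0.497% of all genes did. Between the treatments 2 passed as higher with acetate than with ethanol, where 2.84% of all genes did. Marker lists of fat cells and liver, the other lipid-producing cell types, were near 0: of 7 adipocyte markers 6 were under 1 CPM in all 9 libraries and Cfd was at 0, and of 5 hepatocyte markers all were under 1 CPM with Ttr, Serpina1a and Fgb at 0. Pparg was the adipocyte marker that was expressed, and the summed list ranged from 21.7 to 25.3 CPM in control, 14.9 to 18.6 CPM in acetate and 19.1 to 23.0 CPM in ethanol. Whether the lower chondrocyte marker level plays a part in the values below was not tested. In bulk samples, fewer cells of a type and less RNA per cell cannot be told apart.

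For most of the set acetate replicate 2 was the odd library. It lay outside the range of the other 8 libraries for 26 of 33 members, below them for 14 and above them for 12. The same count over all genes was not made, so this is not read as particular to the set. Against the mean of acetate replicates 1 and 3, its log2(CPM + 1) difference ranged from -1.001 for Msmo1 to 0.76 for Mvd. The split followed the base composition of the transcripts. All 14 members that were below had a GC content of at most 50.0%, and all 12 that were above had at least 50.2%. Across the 33 members the difference correlated with GC content at Pearson r = 0.79 and Spearman rho = 0.80, and across 12742 genes of the whole table at r = 0.83, a description across genes, which share these libraries and are not independent. Idi1, the member with the lowest GC content (41.1%), was an exception, with acetate replicate 2 higher by 0.54 than the mean of the other acetate libraries. The main results that involve acetate are therefore also given without this library.

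**Figure D1:**
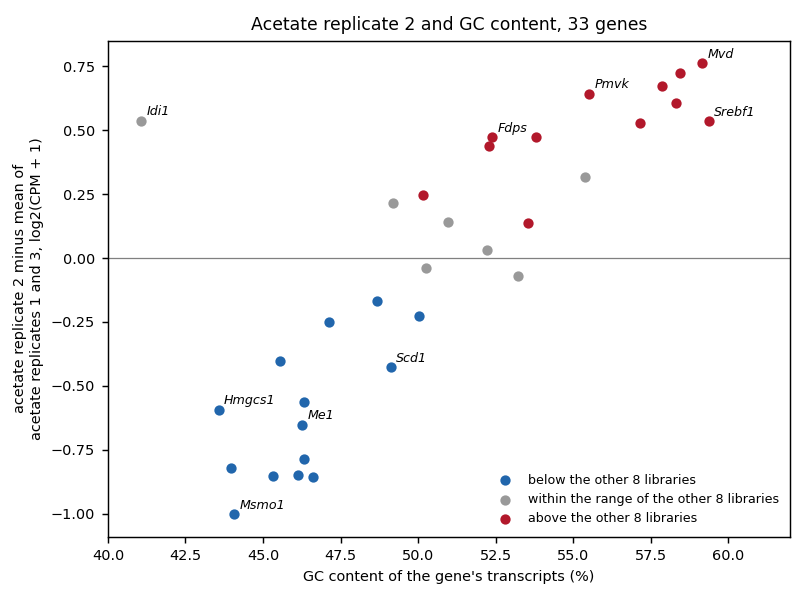
Difference of acetate replicate 2 from the mean of acetate replicates 1 and 3 in log2(CPM + 1) against the GC content of each gene's transcripts in percent, for the 33 members. Each point is 1 gene, coloured by whether acetate replicate 2 lay below (14 genes), within (7) or above (12) the range of the other 8 libraries. The same counts over all genes were not made. Differences run from -1.001 for Msmo1 to 0.76 for Mvd. They are mostly higher at higher GC content, with Idi1 (0.54 at the lowest GC content) an exception.

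In control cells the set spanned a wide range of levels. Per kb of exon, Scd2, a stearoyl-CoA desaturase, was the most abundant member at 505 ± 24.6 CPM (SD, n = 3 libraries). It was followed by Hmgcs1, the HMG-CoA synthase that opens the mevalonate route, at 186 ± 7.52 CPM per kb and by Scd1, the paralogue of Scd2, at 122 ± 7.20 CPM per kb. Next came the lanosterol demethylation enzymes Msmo1 (106 ± 3.90 CPM per kb) and Cyp51 (88.6 ± 0.634), with Me1, malic enzyme, which makes NADPH, between them at 98.2 ± 8.82 CPM per kb. Msmo1 and Me1 lay within their spread of each other. The lowest members per kb were Lpin1 (4.32 ± 0.538), Idi1 (3.03 ± 0.258) and Tm7sf2 (1.70 ± 0.321), a phosphatidate phosphatase, an isopentenyl isomerase and a sterol reductase.

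**Figure D2:**
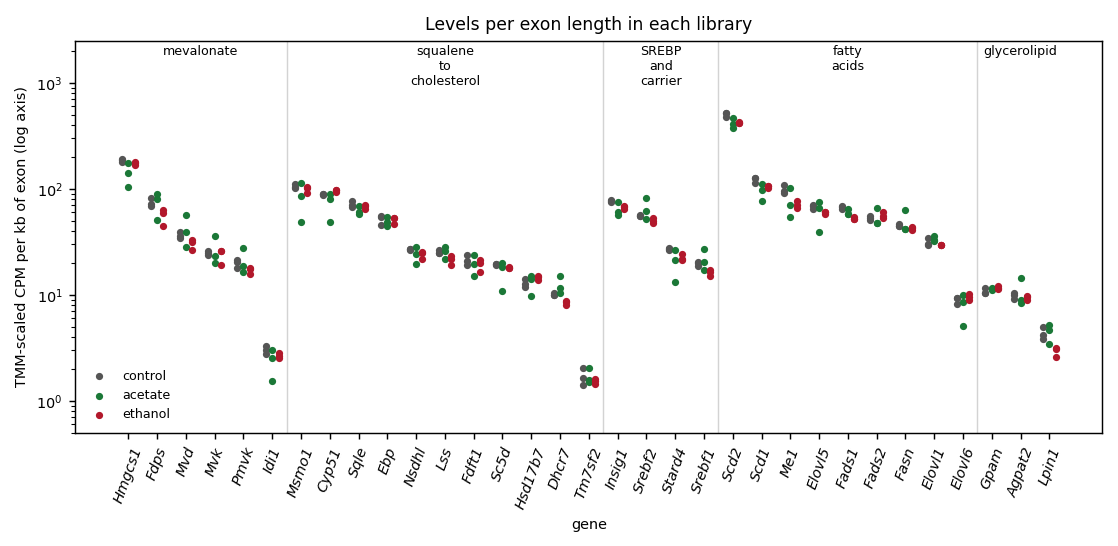
TMM-scaled CPM per kb of exon on a log axis for the 33 members, grouped by role and ordered by the control level within each role. Each point is 1 library (3 per group), and levels in control run from 505 for Scd2 to 1.70 for Tm7sf2.

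Summed over the 33 members, the level was 7898 ± 239 CPM in control, 6888 ± 680 CPM in acetate and 6930 ± 99.4 CPM in ethanol libraries (SD, n = 3 each). The lowest control library (7632 CPM) was above the highest ethanol library (6992 CPM). Acetate replicates 1, 2 and 3 held 7666, 6411 and 6586 CPM, with replicate 2 the lowest, and the highest overlapped control on this TMM scale. As a share of each library's total the set held 0.761%, 0.691% and 0.715%, and there the highest acetate (0.727%) and ethanol (0.728%) libraries were both under the lowest control library (0.757%). The sum weighs Scd2 most, since it was the most abundant member.

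With ethanol, 0 of 33 members passed the test, against a background of 3.93% of all genes tested (191 higher and 315 lower). This count was 1 (Lpin1) with replicate number as a block, 5 without acetate replicate 2 and 9 from the control and ethanol libraries alone, as set out below. These were 3.03%, 15.2% and 27.3% of the members, where 8.35%, 21.5% and 26.8% of all genes passed. At an unadjusted p under 0.05 there were 4 members, all lower (Me1, Scd2, Fads1 and Lpin1), against 19.0% of all genes. Most differences were small and negative: 28 of 33 members were below control, with a median of -0.15, where the median of all genes was -0.00. The 95% interval of every member lay within a 2-fold change either way, and that of 23 members within 1.5-fold. Under scaling to library totals the all-gene median was 0.09 and that of the members -0.05, with 21 members below control: Hmgcs1, Mvk, Sqle, Ebp, Fasn, Elovl1 and Agpat2 turned to above. Under quantile scaling 25 were below, and Hmgcs1, Fasn and Scd2 turned. All 3 ethanol libraries lay below all 3 control libraries for 19 members, 57.6% of the set, against a background of 23.3% of all genes. Scaled to library totals this held for 10 members, 30.3% against 14.6% of all genes (Dhcr7, Srebf1, Insig1, Stard4, Me1, Scd1, Scd2, Elovl5, Fads1 and Lpin1). Statements below that groups did not overlap are on the TMM scale. Cyp51 was the 1 member with the ethanol libraries all higher, against a background of 20.1%, and 5 members were so on library totals, against 34.2%.

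With acetate, again 0 of 33 members passed the test, against a background of 1% of genes. At an unadjusted p under 0.05 there were 3, all lower (Hmgcs1, Scd1 and Scd2), against 14.6% of genes. The median difference was -0.06 against -0.01 over all genes, with 21 members below control, and -0.13 against 0.02 without acetate replicate 2, with 26 members below. The acetate libraries lay below all control libraries for Hmgcs1, Scd1, Scd2 and Fads1, 12.1% of members against a background of 8.14%, and above them for 0 members against 11.4%. On library totals Stard4 joined the members below, then 15.2% against 6.73% of genes. Dhcr7 was above there, 3.03% of members against 14.1% of genes. All intervals but that of Msmo1 (lower bound -1.01) lay within a 2-fold change.

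Between the treatments, 0 of 33 members passed the test, against a background of 3.73% of genes. At an unadjusted p under 0.05 there were 3, all higher with acetate (Dhcr7, Srebf1 and Lpin1), against 21.1% of genes. The acetate libraries lay above all ethanol libraries for 5 members (Dhcr7, Srebf1, Elovl1, Fads1 and Lpin1), 15.2% against a background of 15.3%. They lay below them for Cyp51 alone, against 12.5%. On library totals the acetate libraries lay above for 3 members (Dhcr7, Fads1 and Lpin1), against 12.0%, and below for 3 (Hmgcs1, Sqle and Cyp51), against 16.8%. Without acetate replicate 2, Dhcr7 passed as higher with acetate, and the median was 0.02 for the members and for all genes. The 3 comparisons share their libraries in pairs, so their results are not independent of each other.

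**Figure D3:**
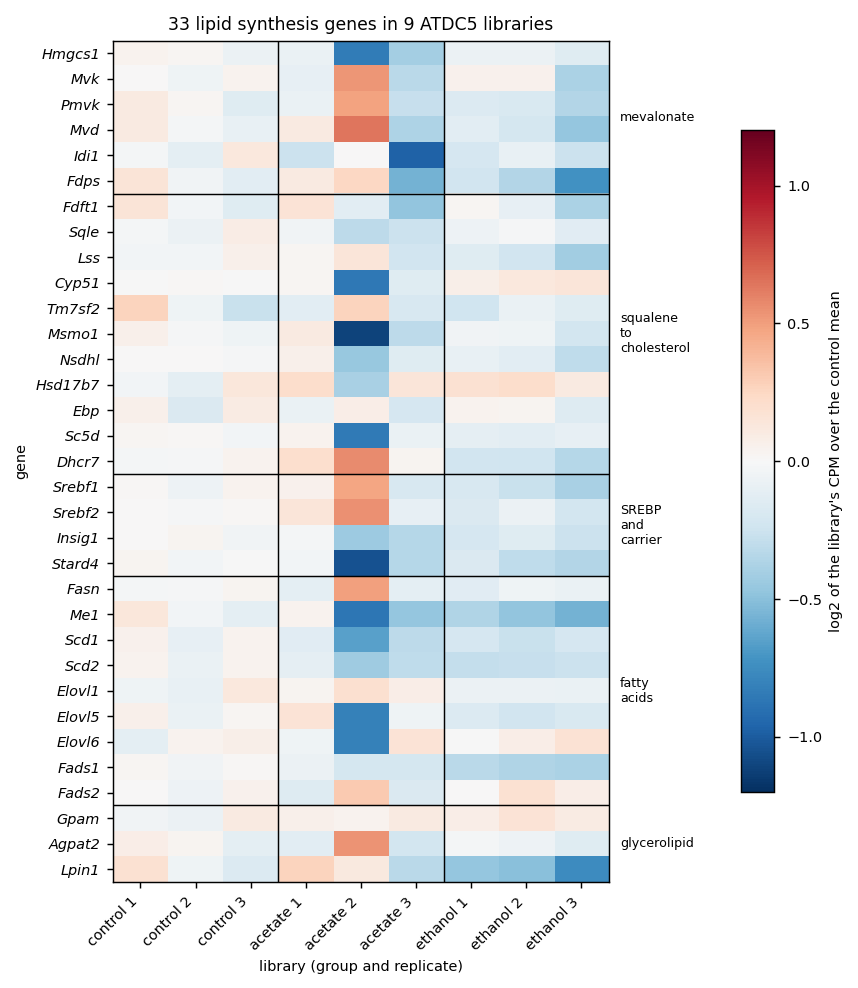
Log2 of each library's CPM over the control mean (colour scale) for the 33 members (vertical axis, by role) in the 9 libraries (horizontal axis, by group and replicate). Acetate replicate 2 carries the strongest colours in both directions, and ethanol libraries are pale blue in most genes. All 3 ethanol libraries are below all control libraries for 19 members, 57.6% against 23.3% of all genes. On library totals this held for 10 members, 30.3% against 14.6%.

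**Figure D4:**
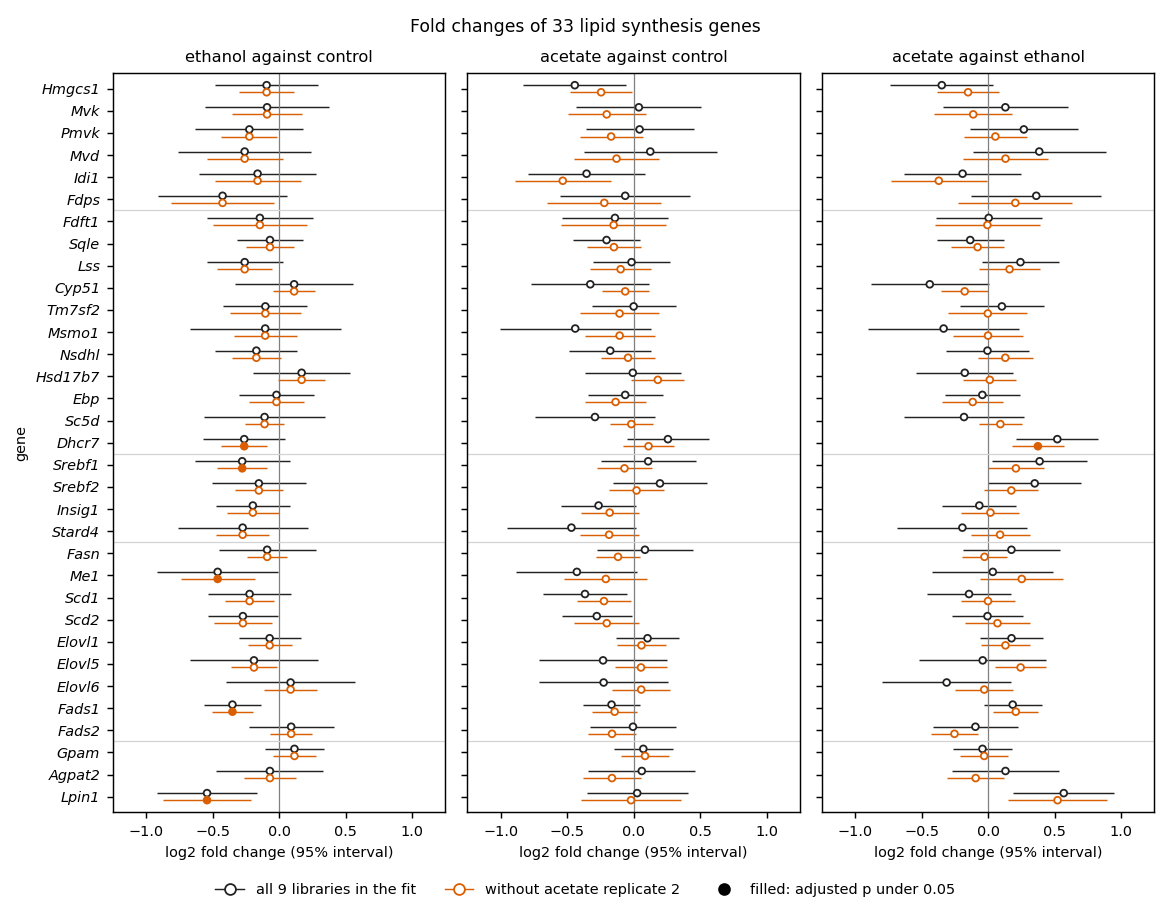
Log2 fold changes (horizontal axes) with 95% intervals of the 33 members in ethanol against control, acetate against control and acetate against ethanol, in the fit of all 9 libraries (black, n = 3 per group) and without acetate replicate 2 (orange). Filled points have an adjusted p under 0.05: 0 in black, and in orange 5 for ethanol against control and 1 for acetate against ethanol. The orange counts are 15.2% and 3.03% of members, where 21.5% and 8.61% of all genes passed. In the black fit 3.93%, 1% and 3.73% of all genes passed, in the order of the comparisons.

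The genes of the mevalonate and isoprenoid steps had 6 members, of which 0 passed the test in any comparison. With ethanol all 6 were below control, with a median of -0.19. With acetate 3 were below and 3 above, with a median of -0.01, or -0.21 without acetate replicate 2. Hmgcs1 was at 669, 657 and 619 CPM in control, 613, 362 and 488 CPM in acetate and 618, 616 and 587 CPM in ethanol. Every acetate library was under every control library, and acetate replicate 2 was the lowest of all. The acetate difference was -0.44 ± 0.17 (95% interval -0.83 to -0.05, adjusted p = 0.28), and -0.24 ± 0.11 without that library (adjusted p = 0.26). For ethanol it was -0.09 ± 0.17 (adjusted p = 0.84), although those groups did not overlap. It was 0.01 under scaling to library totals and 0.10 under quantile scaling.

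Fdps makes farnesyl diphosphate, the branch point to sterols and prenylated proteins. It was at 120.3, 105 and 99.3 CPM in control, 117, 129 and 73.2 CPM in acetate and 92.6, 85.1 and 65.3 CPM in ethanol. The ethanol libraries were all under the control libraries, while acetate spread across both. The ethanol difference was -0.43 ± 0.22 (95% interval -0.91 to 0.06, adjusted p = 0.33) and the acetate difference -0.06 ± 0.22 (adjusted p = 0.88), or -0.22 ± 0.19 without acetate replicate 2 (adjusted p = 0.60).

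Mvd, which decarboxylates mevalonate diphosphate, was at 68.8, 62.6 and 59.8 CPM in control, 68.6, 99.2 and 49.2 CPM in acetate and 58.3, 55.1 and 46.2 CPM in ethanol. Its ethanol difference was -0.26 ± 0.22 (adjusted p = 0.59). Its acetate difference of 0.13 (adjusted p = 0.76) was -0.13 without acetate replicate 2, the highest library.

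Idi1, the isomerase that makes the isoprenoid starter unit, was at 9.04, 8.45 and 9.99 CPM in control, 7.65, 9.17 and 4.68 CPM in acetate and 7.96, 8.62 and 7.64 CPM in ethanol. Acetate replicate 3 held the lowest value and the groups overlapped. The acetate difference was -0.35 ± 0.19 (adjusted p = 0.41), and -0.53 ± 0.16 without acetate replicate 2 (adjusted p = 0.12). The kinases Mvk and Pmvk, which phosphorylate mevalonate in sequence, ranged over 38.2 to 71.8 CPM and 26.8 to 47.6 CPM, each with its highest value in acetate replicate 2. Pmvk was lower in all ethanol than in all control libraries, with a difference of -0.22 ± 0.18 (adjusted p = 0.57).

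From squalene to cholesterol there were 11 members, of which 0 passed the test in any comparison. With ethanol 9 were below control and 2 above, with a median of -0.10. With acetate 9 were also below, with a median of -0.14, or -0.10 without acetate replicate 2. Dhcr7 (chr7:143823145-143848410, plus strand, in GENCODE M21 on GRCm38, the source of all gene positions) catalyses the last step of the route through 7-dehydrocholesterol. It was at 33.1, 33.3 and 34.8 CPM in control, 38.8, 49.8 and 34.4 CPM in acetate and 28.7, 28.6 and 26.7 CPM in ethanol. The ethanol libraries were the lowest of the 9, and all acetate libraries were above them. The difference between acetate and ethanol was 0.52 ± 0.14 (95% interval 0.21 to 0.83, adjusted p = 0.075). Without acetate replicate 2 it was 0.37 ± 0.09 and passed the test (adjusted p = 0.026), where 8.61% of genes passed. Ethanol against control was -0.26 ± 0.14 (adjusted p = 0.34) and, with acetate replicate 2 out of the variance estimate, -0.26 ± 0.08 (adjusted p = 0.038), where 21.5% of all genes passed. With that library in the fit, Dhcr7 passed for acetate against ethanol where the GC trend was removed (adjusted p = 0.019), and for ethanol against control where the replicate block was added to that correction (adjusted p = 0.028).

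Cyp51, which removes a methyl group from lanosterol, was at 346, 351 and 348 CPM in control, 353, 193 and 315 CPM in acetate and 366, 379.9 and 385 CPM in ethanol. Its control values lay close together, and its ethanol libraries were above all others. Against control, ethanol gave 0.11 ± 0.20 (adjusted p = 0.83), with a standard error of 0.07 without acetate replicate 2 (adjusted p = 0.27). Acetate against ethanol was -0.44 ± 0.20 (95% interval -0.88 to 0.00, adjusted p = 0.24), and -0.18 ± 0.08 without acetate replicate 2 (adjusted p = 0.20).

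Msmo1, the methylsterol oxidase of the next demethylation, was at 225, 215 and 209 CPM in control, 233, 100.01 and 174 CPM in acetate and 211, 208 and 186 CPM in ethanol. Acetate replicate 1 was the highest library and acetate replicate 2 the lowest. The acetate difference of -0.44 ± 0.25 (adjusted p = 0.42) was -0.11 ± 0.12 without acetate replicate 2 (adjusted p = 0.69).

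The other enzymes of this route were less variable or showed the same split by library. Sqle, the squalene epoxidase that controls flux into sterols, ranged from 158 to 210.2 CPM and had overlapping groups. Lss, which folds squalene epoxide into lanosterol, was at 119 ± 4.53 CPM in control and 99.2 ± 9.38 CPM in ethanol without overlap (-0.26 ± 0.13, adjusted p = 0.31). Nsdhl and Sc5d, a sterol dehydrogenase and a desaturase, were also lower in every ethanol than in every control library, with differences of -0.17 and -0.11. Hsd17b7, a sterol ketoreductase, was at 64.9 ± 5.95 CPM in control and 72.9 ± 2.69 CPM in ethanol with overlapping groups, the largest positive ethanol difference of the set (0.17 ± 0.16, adjusted p = 0.64). Fdft1 (squalene synthase), Ebp (sterol isomerase) and Tm7sf2 had ethanol differences of -0.14, -0.02 and -0.10.

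Among the regulators and the sterol carrier, 0 of 4 passed the test, and all 4 were lower in every ethanol than in every control library (median -0.24), where 23.3% of all genes were. On library totals Srebf2 overlapped. Srebf1 (chr11:60199089-60222581, minus strand) encodes the SREBP form that drives fatty acid genes. It was at 85.5, 80.9 and 87.3 CPM in control, 87.4, 117 and 74.2 CPM in acetate and 74.0, 70.2 and 64.7 CPM in ethanol. Every ethanol library was under the other 6. The ethanol difference was -0.28 ± 0.16 (adjusted p = 0.39), and -0.28 ± 0.08 with acetate replicate 2 left out, where it passed the test (adjusted p = 0.041). The acetate difference was 0.11 (adjusted p = 0.71) with that library and -0.07 without it (adjusted p = 0.76).

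Srebf2, the form that drives sterol genes, was at 283, 279 and 286 CPM in control, 313, 414 and 263 CPM in acetate and 251, 269.5 and 243 CPM in ethanol. Against control, the difference was -0.15 ± 0.16 with ethanol (adjusted p = 0.67) and 0.20 with acetate (adjusted p = 0.51), or 0.02 without acetate replicate 2. Stard4, which carries cholesterol between membranes, was at 144, 137 and 141 CPM in control, 138, 68.2 and 111 CPM in acetate and 125, 114 and 110.1 CPM in ethanol. Its ethanol difference was -0.27 ± 0.22 (adjusted p = 0.56) and its acetate difference -0.47 ± 0.22 (adjusted p = 0.36), or -0.18 ± 0.10 without acetate replicate 2 (adjusted p = 0.38). Insig1, the sterol-dependent anchor of SREBP, was at 207 ± 5.47 CPM in control, 174 ± 27.0 CPM in acetate and 180.5 ± 7.09 CPM in ethanol. Its ethanol difference was -0.20 ± 0.12 (adjusted p = 0.44).

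In fatty acid synthesis, desaturation and elongation, 0 of 9 members passed the test in any comparison. With ethanol 7 were below control (median -0.19), and with acetate 7 (median -0.23, or -0.14 without acetate replicate 2). Fads1 (chr19:10182888-10196877, plus strand), the delta-5 desaturase of polyunsaturated fatty acids, was at 237, 226 and 236 CPM in control, 221, 201 and 201 CPM in acetate and 186, 181 and 179 CPM in ethanol. The groups did not overlap, with acetate between control and ethanol. The ethanol difference was -0.35 ± 0.10 (95% interval -0.57 to -0.13, adjusted p = 0.083), the lowest adjusted p of the set in this comparison, and it passed without acetate replicate 2 (-0.35 ± 0.07, adjusted p = 0.0069). Acetate against control was -0.17 (adjusted p = 0.42), or -0.14 without acetate replicate 2 (adjusted p = 0.38). Fads2, the delta-6 desaturase that lies next to Fads1 on chromosome 19, did not follow it: its ethanol difference was 0.09 ± 0.14 (adjusted p = 0.81).

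Me1 (chr9:86581371-86695953, minus strand) was at 389, 347 and 326 CPM in control, 363, 194 and 257 CPM in acetate and 276, 254 and 239 CPM in ethanol. Ethanol libraries were all under control, and acetate spanned from within control to the lowest value of all. The ethanol difference was -0.46 ± 0.20 (95% interval -0.92 to -0.01, adjusted p = 0.26), and it passed without acetate replicate 2 (-0.46 ± 0.13, adjusted p = 0.027). The acetate difference was -0.43 (adjusted p = 0.36), or -0.21 without that library (adjusted p = 0.49).

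Scd1, which like Scd2 places the first double bond in saturated fatty acids, was at 609, 548 and 608 CPM in control, 536, 374 and 473 CPM in acetate and 510.4, 489 and 513 CPM in ethanol. Both treated groups lay under all control libraries. The acetate difference was -0.37 ± 0.14 (95% interval -0.68 to -0.05, adjusted p = 0.27), or -0.22 ± 0.09 without acetate replicate 2 (adjusted p = 0.24). The ethanol difference was -0.22 ± 0.14 (adjusted p = 0.44), and -0.034 under quantile scaling. Scd2 showed a like order, at 2753 ± 134 CPM in control, 2280.4 ± 259.5 CPM in acetate and 2278 ± 27.3 CPM in ethanol, with an ethanol difference of -0.27 ± 0.12 (adjusted p = 0.25). Its ethanol difference turned under quantile scaling, to 0.13. Its acetate difference was -0.28, or -0.20 without acetate replicate 2. How reads that match both paralogues were assigned was not given in the sources used here.

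Fasn, the fatty acid synthase itself, was at 456 ± 9.34 CPM in control, 493 ± 127 CPM in acetate and 428 ± 13.0 CPM in ethanol. Its ethanol difference was -0.09 ± 0.16 (95% interval -0.45 to 0.27, adjusted p = 0.84), which was 0.0089 under scaling to library totals and 0.035 under quantile scaling, and its acetate mean included replicate 2 at 640.1 CPM. The acetate difference of 0.09 was -0.12 without that library. The elongases had ethanol differences of -0.07 (Elovl1), -0.19 (Elovl5) and 0.09 (Elovl6). Only Elovl5 among them was lower in every ethanol than in every control library.

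In glycerolipid synthesis, Lpin1 had the largest ethanol difference of the whole set. Lpin1 (chr12:16535669-16610966, minus strand) converts phosphatidate to diacylglycerol, the step before triglyceride, and also acts as a transcriptional coactivator. It was at 30.4, 25.9 and 23.9 CPM in control, 32.3, 29.0 and 21.4 CPM in acetate and 19.4, 18.9 and 15.9 CPM in ethanol. Every ethanol library was below every other library, and within each group replicate 3 was the lowest. The difference was -0.54 ± 0.17 for ethanol against control (95% interval -0.92 to -0.16, adjusted p = 0.12) and 0.57 ± 0.17 for acetate against ethanol (95% interval 0.19 to 0.95, adjusted p = 0.10), or 0.52 without acetate replicate 2 (adjusted p = 0.085). Acetate against control was 0.03 (95% interval -0.35 to 0.41, adjusted p = 0.94), or -0.02 without acetate replicate 2 (adjusted p = 0.97). With replicate number as a block both ethanol comparisons passed the test: -0.54 ± 0.10 (adjusted p = 0.027) where 8.35% of genes passed, and 0.57 ± 0.10 (adjusted p = 0.027) where 6.4% passed. Lpin1 was the 1 member called with the block in each of these comparisons, and 0 members were called for acetate against control, where 2.28% of genes passed. Without acetate replicate 2 the ethanol difference also passed (adjusted p = 0.030). The other glycerolipid members, the acyltransferases Gpam and Agpat2, had ethanol differences of 0.12 ± 0.10 and -0.07 ± 0.18.

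**Figure D5:**
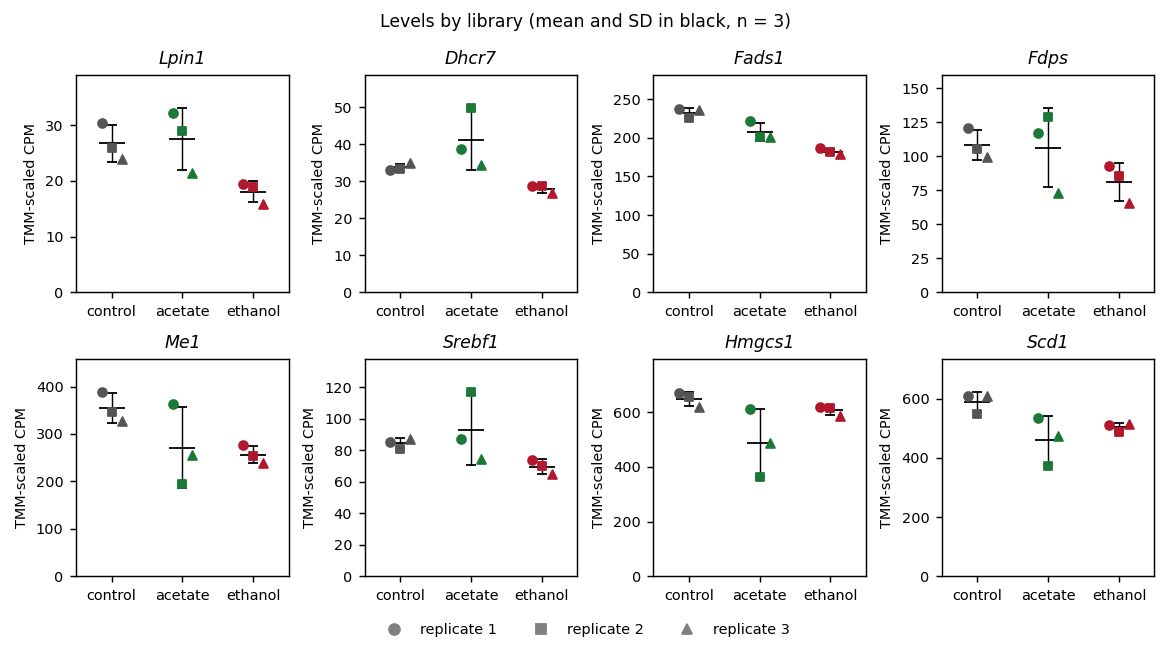
TMM-scaled CPM (vertical axes, from 0) of 8 members in control, acetate and ethanol libraries, with symbols for the replicate and black bars for mean and SD (n = 3). Ethanol libraries lie below all control libraries in each of the 8 genes, for example at 15.9 to 19.4 against 23.9 to 30.4 for Lpin1. All 8 are among the 19 members for which this held, where it held for 23.3% of all genes, so the picture is no separate result. On library totals Fdps and Hmgcs1 overlapped control. Cyp51, with ethanol higher, is not shown. Acetate replicate 2 (green square) lies far from its group in Dhcr7, Srebf1, Hmgcs1 and Me1.

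Replicate 3 was the lowest library of all 3 groups for 6 members (Pmvk, Mvd, Fdps, Fdft1, Agpat2 and Lpin1), 18.2% of the set against 11.6% of all genes. The spread within groups was small in control and ethanol: the median SD of log2(CPM + 1) over the members was 0.07 in control and 0.08 in ethanol, against 0.11 and 0.10 over all genes. In acetate it was 0.33, against 0.27 over all genes. Over acetate replicates 1 and 3 alone it was 0.15, against 0.12 over all genes. Since the test shares 1 variance per gene over all 9 libraries, the spread in acetate entered the ethanol comparison too. Acetate against control also had 0 members called without acetate replicate 2, where 3.48% of genes passed. Without that library, 5 members were lower with ethanol (Dhcr7, Srebf1, Me1, Fads1 and Lpin1), 15.2% of the set, where 11.3% of genes were lower. In either direction 21.5% of all genes passed in that fit. From the 6 control and ethanol libraries alone 9 members were lower (adding Fdps, Lss, Stard4 and Scd2), 27.3% of the set, where 14.6% of genes were lower. There 26.8% of all genes passed in either direction, close to the share of members.

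The difference of acetate from control tracked GC content over the 33 members at r = 0.80, and at 0.11 without acetate replicate 2. Acetate against ethanol did so at r = 0.72 and 0.19, and ethanol against control at -0.12. These are descriptions across genes that share libraries. What makes acetate replicate 2 differ was not tested.

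Around the members, 7 further lists of the same metabolism held 73 tested genes that are not members. With ethanol 0 of them were higher and 1 lower, with acetate 0 passed, and between acetate and ethanol 1 was higher. These were 1.37%, 0% and 1.37% of the 73 genes, where 3.93%, 1% and 3.73% of all genes passed. The gene that passed with ethanol and between the treatments was Acsl6, a long-chain acyl-CoA synthetase. It is from the list of other elongation, desaturation and activation genes. It was at 12.3, 11.4 and 13.2 CPM in control, 14.7, 16.2 and 14.2 CPM in acetate and 8.80, 8.44 and 8.47 CPM in ethanol. The 3 groups did not overlap, with ethanol lowest and acetate highest. The difference was -0.47 ± 0.11 for ethanol against control (adjusted p = 0.043) and 0.74 ± 0.11 for acetate against ethanol (adjusted p = 0.0075). For acetate against control it was 0.27 ± 0.11 (adjusted p = 0.29). The call for ethanol against control was lost under 12 of 22 alternatives (adjusted p up to 0.20), among them leaving out any 1 control, any 1 ethanol, or acetate replicate 1 or 3. The call for acetate against ethanol was lost under 2 of 22, without ethanol replicate 2 and in a fit of only the 6 libraries compared (adjusted p = 0.052 in both).

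By list, 0 of 8 other sterol synthesis genes, 0 of 7 LXR factors and sterol efflux targets and 0 of 13 other glycerolipid genes passed in any comparison, without or with the replicate block. Over the 73 genes, 5 passed with the block for ethanol against control (6.85%, against 8.35% of all genes). Of 12 tested genes of SREBP escort, proteolysis and sterol sensing, the member Stard4 among them, 1 passed with the block. This was Rnf145, a sterol-responsive ubiquitin ligase, lower with ethanol (-0.42 ± 0.10, adjusted p = 0.048, and 0.073 without the block). Of 7 genes of acetyl-CoA and malonyl-CoA supply, 2 passed with the block, both lower with ethanol, where 8.35% of all genes passed. Acss2, the enzyme that turns acetate into acetyl-CoA in cytosol and nucleus, was at 28.8 ± 3.18 CPM in control, 25.1 ± 6.48 CPM in acetate and 17.5 ± 2.95 CPM in ethanol. Its ethanol difference was -0.69 ± 0.13 with the block (adjusted p = 0.028) and had an adjusted p of 0.10 without it. Slc25a1, the mitochondrial citrate exporter, was at 106 ± 3.08, 107 ± 26.5 and 67.9 ± 10.7 CPM in the same order, with an ethanol difference of -0.64 ± 0.15 with the block (adjusted p = 0.045, and 0.095 without it).

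Among 13 tested genes of fatty acid oxidation, Hadh, a dehydrogenase of beta-oxidation, was lower with ethanol in the blocked fit (-0.40 ± 0.09, adjusted p = 0.046, and 0.14 without the block). Cpt1a, which admits fatty acids to mitochondria, was at 28.8 ± 2.89 CPM in control, 45.2 ± 5.37 CPM in acetate and 35.3 ± 6.11 CPM in ethanol. Its acetate difference was 0.63 ± 0.09 with the block (adjusted p = 0.026) and had an adjusted p of 0.093 without it. For that comparison the replicate numbers were not found to pair the libraries. Without acetate replicate 2 and without the block, 1 of the 73 genes was higher and 13 were lower with ethanol, 0 passed with acetate, and 4 were higher and 1 lower with acetate than with ethanol. These were 19.2%, 0% and 6.85% of the 73 genes, against 21.5%, 3.48% and 8.61% of all genes. In the main fit, the medians of the 73 genes were -0.05, -0.05 and 0.10 for ethanol against control, acetate against control and acetate against ethanol. Without acetate replicate 2 the medians were -0.04 for acetate against control and 0.05 for acetate against ethanol.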

How the data were processed

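RNA sequencing of 9 ATDC5 libraries was analysed from 1 deposited table of log2 values for 26202 genes, TMM-normalised counts per its name. Per the submitters' processing notes, the tools were STAR 2.7.8a, Bowtie2 2.2.5 and Partek (no version), and the build was mm10, with no role or order given. The sources used here do not give the counting step or annotation. The treatment text in the labels describes other material (livers and HepG2 cells) and was not used. The deposited log2 values were raised to a power of 2 and each library's floor (an offset of 1e-05 read) was subtracted, which gave TMM-scaled CPM. From the floor 28.7 to 41.9 M reads per library were recovered. Of the values of 1 to 20 reads 85.6% to 87.2% were whole within 0.02 read, so no count test was used.

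The 12868 genes whose mean reached 1 CPM were tested as log2(CPM + 1) with limma 3.58.1 in R 4.3.3. The fit had 1 mean per group, all 9 libraries, a variance trend and Benjamini-Hochberg adjustment over all genes, and an adjusted p under 0.05 passed. A pseudocount of 1 understates changes of low genes. The procedure was tested on simulated reads with 2-fold changes planted in the ethanol libraries and a common dispersion for all genes. The simulation had no odd library, GC trend or pairing. It therefore does not show how well the test finds differences as small as those of the members. Python 3.11.15, pandas 2.3.3 and matplotlib 3.10.9 were used for tables and figures. GENCODE M21 (GRCm38) gave positions, lengths and GC content: 24919 genes matched by symbol, 445 by synonym and 838 not at all.

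The members and lists were chosen with earlier results of these data known. Values in every library are given for members past the threshold in any comparison, without or with the replicate block, and then for those with the largest fold changes up to 14 members. Of other lists, up to 3 genes past the threshold per comparison were named by fold change. Rnf145, Acss2, Slc25a1, Hadh and Cpt1a, which passed with the block and not without it, fall outside that rule and were chosen after their values were seen.

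Replicate numbers come from the labels. Deviations of same-numbered libraries from their group means correlated across genes at 0.55, 0.36 and 0.67 for ethanol and control, and at 0.15, 0.25 and 0.61 for acetate and ethanol. Between different numbers the highest value was 0.25 for ethanol and control and 0.18 for acetate and ethanol, the latter above the 0.15 of a same-numbered pair. Both comparisons were read as paired only in the fits with the block. The main fit had no block, so its p-values ignore any pairing. The same-numbered values for acetate and control were 0.25, -0.10 and 0.41, and that comparison was not read as paired. In all, 22 alternatives were run on pseudocount, filter, scaling, variance trend, block, GC content (lowess, span 0.3) and the libraries in the fit. Scaling to library totals was chosen after seeing the data.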

Additional observations from a re-analysis of the deposited data

Results flagged for a closer look

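Acsl6 differed between the treatments: the acetate effect minus the ethanol effect was 0.742 on the log2 scale (limma adjusted p = 0.0075, and 0.012 with the replicate block). All 3 acetate libraries were above and all 3 ethanol libraries below the 3 control libraries. Acsl6 was the 1 gene in this re-analysis whose treatments differed by that test without the block, among the 14 members named with values and the genes named from the other lists. Over all genes tested 3.73% passed in that comparison.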

How the results depend on the processing

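Of 66 counts of members past the threshold under the 22 alternatives, 52 kept to their value and 14 moved. The replicate block takes same-numbered libraries of all 3 groups as paired, which was not found for acetate and control. With the block the count was 1 for ethanol against control and 1 for acetate against ethanol (Lpin1 in both). The block changed no other call on a member. With the GC trend removed it was 1 in each (Lpin1 and Dhcr7), where 12.9% and 7.98% of all genes passed. The block with the GC trend removed gave 8, 1 and 3 for ethanol against control, acetate against control and acetate against ethanol, where 30.6%, 12.9% and 24.2% of all genes passed. The block with acetate replicate 2 left out gave 17, 6 and 10, but that fit shrank all genes to a shared variance trend, and 50.2%, 21.5% and 33.1% of all genes passed. Only the 6 libraries compared gave 9 for ethanol against control, where 26.8% of all genes passed. Leaving out 1 library at a time gave 0 to 5, 0 to 0 and 0 to 2, and both highest counts came without an acetate library (replicates 2 and 3). The 5 were 15.2% of the members, where 21.5% of all genes passed without acetate replicate 2. The share of all genes without acetate replicate 3 is not given here, so the count of 2 is not read as a result.

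Of 990 fold changes of named genes, 31 changed sign. Ethanol against control: Hmgcs1 0.0051 under library totals and 0.10 under quantile scaling. Acetate against control with the GC trend removed, with or without the block: Lpin1 -0.062, Srebf1 -0.13, Mvd -0.11, Idi1 0.049 and Srebf2 -0.014. With the block and acetate replicate 2 left out: Lpin1 -0.013, Srebf1 -0.081 and Mvd -0.12. Leaving out 1 library: Lpin1 -0.093 to 0.19, Fdps -0.22 to 0.18, Srebf1 -0.069 to 0.26 and Mvd -0.13 to 0.37. Acetate against ethanol: Idi1 0.24 with the GC trend removed, with or without the block, Me1 -0.0014 under library totals, and Stard4 0.074 and Msmo1 0.0091 with the block and acetate replicate 2 left out. Leaving out 1 library: Stard4 -0.41 to 0.090, Me1 -0.20 to 0.25 and Idi1 -0.37 to 0.049. The cause was not tested. Of the same fold changes, 52 newly passed the test and 14, all of Acsl6, no longer did. Of 462 counts over the other lists, 76 moved. Counting error is largest for Tm7sf2, the lowest member, at 2.39 to 3.46 CPM.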
